A study of Mus musculus with 42 samples.

Results

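Hippocampal and cortical neuronal cultures from the same litters were compared. They make up 20 of the 42 arrays of the series: 10 arrays titled as hippocampal neuronal cultures and 10 titled as cortical neuronal cultures, paired by the mouse ID in the title. The series measured mRNA in Fmr1KO mice, a knockout of the gene mutated in fragile X syndrome, and in WT mice, in these cultures and in embryonic hippocampus and cortex. Each culture group holds 5 KO and 5 WT arrays, all titled as untreated. Both genotypes were C57BL/6 congenic mice, the embryos were taken 17 to 18 days after conception, and the cells of both regions grew for 14 days in vitro in Neurobasal medium with B27 supplement. The labels call the samples pools of littermates, and a mouse ID was therefore read as a litter: KO litters 2037, 2038, 2221, 2620 and 4236, and WT litters 2236, 2643, 2644, 3569 and NT. No litter holds both genotypes. The cultures were mixed, with neurons and an estimated share of glia, and no sort is described. The labels name neither the day of a culture nor the number of dishes, and p-values therefore measure the spread between these litters.

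The hippocampus and the neocortex arise side by side in the dorsal telencephalon. At their border the cortical hem secretes Wnt and BMP proteins that induce the hippocampal fields, and the hem also gives rise to choroid plexus and to Cajal-Retzius cells. The dissected pieces differ in the neurons they hold, in dentate granule cells and pyramidal cells of the hippocampal fields or in the neurons of the cortical layers, and in how many interneurons, oligodendrocyte precursors and other cells migrated into them before dissection. In bulk RNA, fewer cells of a type and less RNA per cell cannot be told apart.

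Each array gave a log2 signal per probe set, after RMA normalization, and a difference of 1 is thus 2-fold. The medians of the 20 culture arrays ran from 5.45 to 5.56. Probes of genes that neurons and glia do not use (olfactory and vomeronasal receptors, hair keratin partners) set a background level of 5.28 log2, and where the mean of 1 culture group lay at or below it the difference is a lower bound. The hippocampal arrays lay between -46.8 and -6.7 on the first principal component, which held 36.6% of the variance, and the cortical arrays between 17.0 and 49.9, without overlap. Some arrays stood apart on the second component (17.9%): the hippocampal culture of WT 2644 scored 56.7, while the other hippocampal cultures scored 10.9 or less, and the cortical cultures of WT 3569, KO 4236 and WT NT scored -40.4, -44.4 and -44.0. The cortical culture of WT 2236 scored 38.3, with the next cortical culture at 15.8. Counts were therefore also made without WT 2236 and without the 4 litters WT 2644, WT 3569, KO 4236 and WT NT (a set of 6 that still holds WT 2236), a choice made after the data were seen.

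**Figure D1:**
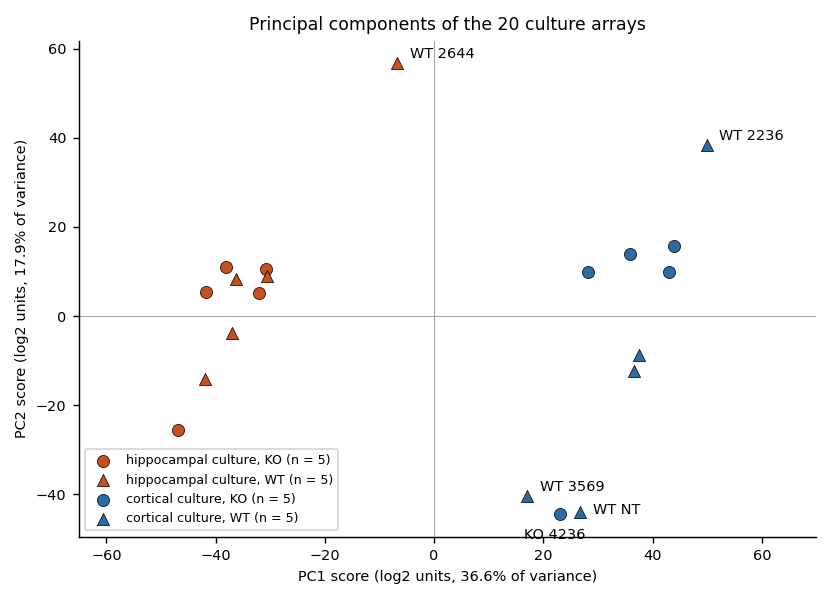
First (across, 36.6% of the variance) and second (upward, 17.9%) principal component scores of the 20 culture arrays, in log2 units, with 1 marker shape per genotype. Hippocampal cultures lie at the left, up to -6.7, and cortical cultures at the right, from 17.0, with hippocampal WT 2644 the highest on PC2.

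Both cultures carried transcripts of excitatory and inhibitory neurons. The labelled cell type was checked against its markers. Camk2a, a kinase of excitatory synapses, spanned 12.25 to 13.12 log2 (median 12.78) in hippocampal cultures and 11.13 to 12.97 (median 11.90) in cortical cultures. Gad1, which makes GABA, spanned 10.42 to 11.39 (median 10.89) in hippocampal cultures and 11.04 to 11.85 (median 11.67) in cortical cultures. Slc17a7, a vesicular glutamate transporter, had medians of 7.38 in hippocampal and 5.95 in cortical cultures. Aqp4, a water channel of astrocytes, was present in both, at medians of 8.95 in hippocampal and 9.43 in cortical cultures. Markers of microglia (C1qa, Cx3cr1), endothelium (Cldn5), mature myelin (Mog), fibroblasts (Col1a1), striatal neurons (Drd2, Isl1) and thalamus (Gbx2) had means at or below background in both cultures. Other defining markers were present: Drd1 of striatal neurons had medians of 6.07 in hippocampal and 5.90 in cortical cultures, and Tcf7l2 of thalamus 6.07 and 6.00. Ppp1r1b of striatal neurons, Rgs5 of pericytes and Dcn of meninges are described further on.

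Between the cultures, 4643 of 18194 genes were called at a Benjamini-Hochberg adjusted p under 0.05 (25.5% of those tested), 2389 higher in hippocampal culture (13.1%) and 2254 lower (12.4%). Counts in each gene list below are to be read beside these 13.1% and 12.4% of all genes. With each array centred on its median the split was 2905 higher and 1744 lower. The differences were small for most: the median size was 0.37 log2 among the higher genes and 0.35 among the lower ones. At least 2-fold apart were 451 genes (2.48%), 231 higher (1.27%) and 220 lower (1.21%). Of these, 47 higher and 32 lower genes were at least 4-fold apart, and 9 and 5 at least 8-fold. The 10 hippocampal and 10 cortical arrays did not overlap for 542 genes (2.98%), 292 of them higher (1.6%) and 250 lower (1.37%). All of the 231 and 220 genes at least 2-fold apart had the same sign in KO as in WT litters. They were chosen on the mean of these same litters, which makes a shared sign likely in advance, and it is no separate check. Several probes were present for 144 of the higher and 148 of the lower genes, and no second probe was called in the opposite direction. Without WT 2236, 4263 genes were called and 435 were at least 2-fold apart, and without the 4 litters 4394 and 582. The 5 WT litters alone gave 891 and 364, and the 5 KO litters alone 4225 and 523.

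The genes furthest apart on the higher side were Ttr and Wnt8b. Ttr, which encodes transthyretin of the choroid plexus, spanned 8.54 to 11.05 log2 (median 10.23) in hippocampal cultures, against 3.80 to 4.75 (median 4.22) in cortical cultures. Every hippocampal array lay above background and every cortical array below it, and the difference was 5.94 (standard error 0.21, adjusted p = 5.59e-09). Wnt8b, a ligand secreted by the cortical hem, spanned 7.46 to 9.58 (median 8.96) in hippocampal cultures, against 3.60 to 4.92 (median 3.83) in cortical cultures, and differed by 4.85 (standard error 0.18, adjusted p = 7.56e-09). Mndal, of a family of interferon-inducible genes whose near-identical copies may share its probes, was higher by 4.44 (standard error 0.10), with arrays of 7.86 to 9.17 in hippocampal and 3.54 to 4.83 in cortical cultures. Next came 2 genes of neurons. Nhlh2, a basic helix-loop-helix transcription factor, spanned 6.28 to 7.89 in hippocampal cultures and reached at most 3.64 in cortical cultures, where every array was below background. Calb2, the calcium-binding protein calretinin, spanned 9.61 to 12.04 (median 11.55) in hippocampal cultures, against 5.75 to 9.59 (median 7.53) in cortical cultures. The lowest hippocampal array, that of WT 2644, lay just above the highest cortical one, and the difference was 3.67 (standard error 0.38).

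The remaining genes of this group differed by 2.82 to 3.32 log2. They were Sulf1 (3.32), which edits heparan sulfate, the small GTPase Rerg (3.12), the secreted cartilage glycoprotein Cnmd (3.10), Neurod1 (3.05), a transcription factor of differentiating dentate neurons, the tetraspanin Tspan18 (2.94), the astrocyte filament gene Gfap (2.86) and Thrsp (2.82), a regulator of lipid synthesis. A higher value in all 10 litters was a condition for naming the genes of this group. The arrays of both cultures overlapped only for Sulf1, whose lowest hippocampal value of 6.37 was under the highest cortical value of 6.54. The cortical means of Ttr, Wnt8b, Mndal, Nhlh2, Sulf1, Rerg and Cnmd were below background.

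On the lower side, Met was the first. Met encodes the receptor of hepatocyte growth factor, which marks projection neurons of the cortex, and spanned 4.51 to 6.73 log2 (median 5.18) in hippocampal cultures, against 8.27 to 10.62 (median 9.45) in cortical cultures. No arrays overlapped, and the difference was -4.09 (standard error 0.28, adjusted p = 6.90e-07). Ccn3, a secreted matricellular protein, spanned 5.78 to 10.08 (median 7.47) in hippocampal cultures, against 10.81 to 12.20 (median 11.59) in cortical cultures, and differed by -3.91 (standard error 0.33). Its hippocampal arrays were widely spread, yet all stayed below the cortical ones. Olig2 and Pdgfra, both of the oligodendrocyte lineage, followed at -3.78 and -3.39. Syn3, a synapsin of synaptic vesicles, was lower by -3.12 (standard error 0.32) and Mpped1, a metallophosphoesterase gene, by -2.97 (0.15). Gucy1a1, a subunit of the nitric oxide receptor guanylate cyclase, differed by -2.95, the kelch gene Klhl4 by -2.93, and Mir124-2hg, a host transcript of a miR-124 precursor, by -2.89. Plxnd1, the receptor of Sema3E, was lower by -2.80, Rlbp1, a retinaldehyde-binding protein, by -2.79, and the zinc finger factor Klf5 by -2.64. A lower value in all 10 litters was a condition for naming these 12. Their arrays did not overlap, and the hippocampal means of Olig2, Gucy1a1, Klhl4, Mir124-2hg, Rlbp1 and Klf5 were below background.

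**Figure D2:**
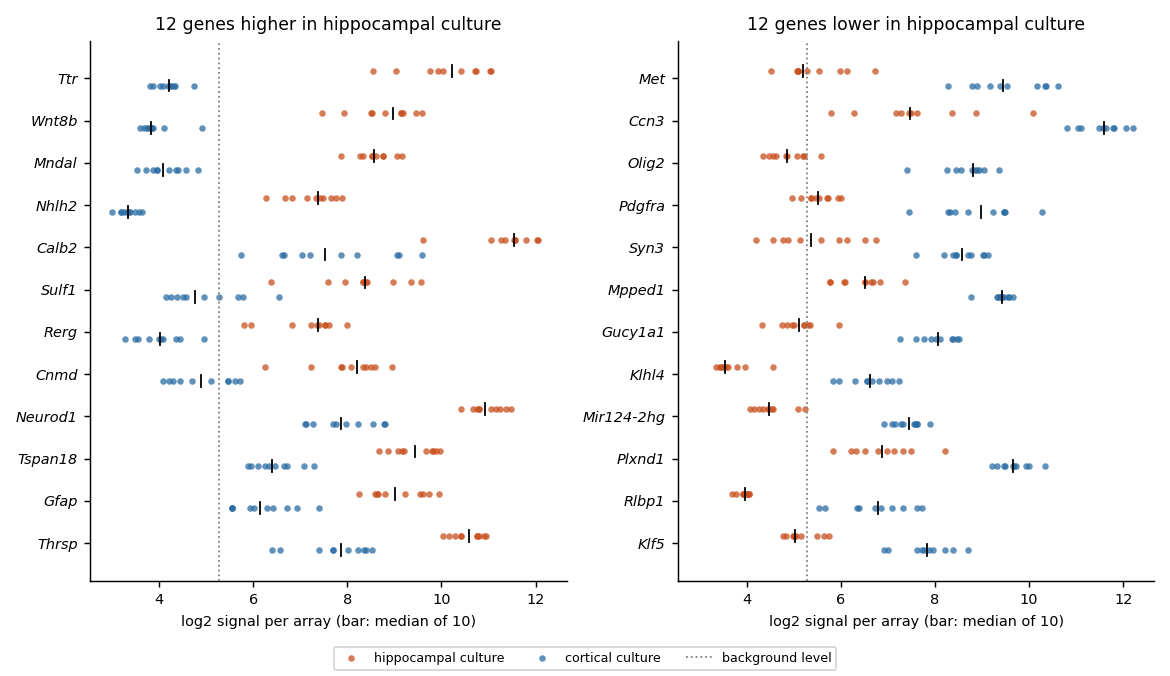
Log2 signal (horizontal axis) of the 12 higher and 12 lower genes with the largest differences, 1 row per gene, with 10 hippocampal arrays above 10 cortical arrays, bars at the medians and the background level of 5.28 as a dotted line. For Ttr and Wnt8b all cortical points lie below the line, and for Olig2 the hippocampal median of 4.84 does.

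The promoters of Wnt8b and Met are shown because these genes stood, with Ttr, at the 2 ends of the comparison. The sequences are from RefSeq on GRCm38.p6, from 250 bases before to 50 after the annotated start, 5′ to 3′ on the strand of the gene: Wnt8b at chr19:44493222-44493521 on the plus strand and Met at chr6:17463707-17464006 on the plus strand. Capitals mark CCAAT boxes, CCAAT on either strand.
Wnt8b: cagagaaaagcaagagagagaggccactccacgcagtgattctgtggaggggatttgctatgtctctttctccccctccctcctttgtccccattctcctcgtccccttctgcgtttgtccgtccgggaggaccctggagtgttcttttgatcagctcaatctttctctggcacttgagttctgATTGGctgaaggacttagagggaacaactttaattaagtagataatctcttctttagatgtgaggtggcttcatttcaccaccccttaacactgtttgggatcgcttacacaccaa
Met: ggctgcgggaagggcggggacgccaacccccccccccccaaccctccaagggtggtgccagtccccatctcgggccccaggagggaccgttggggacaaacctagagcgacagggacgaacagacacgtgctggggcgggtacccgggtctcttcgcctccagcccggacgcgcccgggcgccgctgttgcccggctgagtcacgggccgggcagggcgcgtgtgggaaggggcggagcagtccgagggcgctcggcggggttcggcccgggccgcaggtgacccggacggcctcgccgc
The Wnt8b window holds 1 match, 66 bases before the start, and the Met window none. Of 14368 genes tested that have such a window, 38.2% hold a CCAAT box, against 44.3% of the 174 windows of genes at least 2-fold higher in hippocampal culture and 45.8% of the 166 of genes at least 2-fold lower. The median GC content was 60.2% in the windows of the higher genes, 60.8% in those of the lower genes and 58.7% in all. A match is a run of letters, and the arrays do not show which start was used.

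Genes of the dentate gyrus and of the hippocampal fields went both ways, more of them higher than lower in hippocampal culture. Of 29 measured, 14 were higher (against 13.1% of all genes), 7 lower (against 12.4%) and 8 not called, with a median difference of 0.16 log2, where the median of all genes was -0.01. Prox1, the factor that specifies granule cells, spanned 5.60 to 6.41 (median 5.85) in hippocampal cultures, against 3.95 to 4.45 (median 4.28) in cortical cultures, and differed by 1.63 (standard error 0.07, adjusted p = 2.98e-08). Zbtb20, a repressor that sets hippocampal pyramidal identity, spanned 11.40 to 12.28 (median 12.12) in hippocampal cultures, against 9.86 to 10.70 (median 10.27) in cortical cultures, and was higher by 1.77 with all 9 of its probes. The arrays of both cultures did not overlap for either gene. Nr3c2, the mineralocorticoid receptor, was higher by 2.44, Grik4, a high-affinity kainate receptor subunit of CA3 neurons, by 2.02, and Emx2, a homeobox gene needed for the hippocampus, by 1.39. On the lower side were the homeobox gene Meis2 (-1.48), the synaptic ligand C1ql3 (-1.22) and Wfs1 (-0.99), a protein of the endoplasmic reticulum known from CA1, which in tissue was higher in hippocampus by 0.89. Without the 4 litters the list again had 14 higher and 7 lower genes, as with the KO litters alone, and with the WT litters alone 10 and 3.

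Among 19 signals of the cortical hem and its opposite border, 6 were higher and 2 lower. After Wnt8b came Dkk3, a secreted Wnt modulator (1.28), the ligand Wnt5a (1.02), with 7.58 to 8.66 log2 in hippocampal and 6.96 to 7.96 in cortical cultures, and the BMP target Msx1 (1.01), which another of its probes put at 0.21 without a call. Lmx1a and Wnt3a, which mark the hem itself, were at background in both cultures. In the tissues of the same litters 16 of the 19 genes were higher in hippocampus, against 24.5% of all genes. Sfrp2, a Wnt antagonist of the opposite border, was lower by -0.84 in all 10 litters. Of 13 Cajal-Retzius genes, 5 were higher and 2 lower, and the markers that define the cells were not among the higher ones. Trp73 was at background in both cultures, and Reln, the secreted guide of cortical layering, was lower by -0.68 (standard error 0.11), with 9.52 to 11.53 (median 10.70) in hippocampal cultures against 10.36 to 11.94 (median 11.48) in cortical cultures. The higher members were Nhlh2, Calb2, Car10 (1.44), a carbonic anhydrase-related protein, the chemokine receptor Cxcr4 (0.83, or 0.49 and not called without the 4 litters) and the proteoglycan Spock2 (0.31, not called without KO 2037 or without KO 2221). Calb2 also stands in the interneuron list.

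Genes of the neocortical layers went the other way. Of 35 measured, 20 were lower in hippocampal culture and 4 higher, with a median of -0.59. Pou3f1, a POU factor of upper and deep layer neurons, spanned 5.19 to 6.03 log2 (median 5.45) in hippocampal cultures, against 7.39 to 8.83 (median 8.09) in cortical cultures, without overlap, and differed by -2.63 (standard error 0.15). Sla, a Src-like adaptor, was lower by -2.57, Tshz2, a zinc finger homeobox factor, by -2.10, Mef2c, an activity-dependent transcription factor, by -1.99, and Rorb, which marks layer IV, by -1.09. Upper layer Cux2 (-0.93) and deep layer Bcl11b (-0.79) were both lower. The 4 higher genes are also named for deep layers: Zfpm2 (2.55), Crym (2.05), Fezf2 (1.10) and Lmo3 (0.87). Fezf2, which directs subcortical projection neurons, spanned 8.68 to 9.27 (median 8.87) in hippocampal cultures, against at most 8.68 (median 7.73) in cortical cultures, and was higher in all 10 litters, while in tissue it was lower in hippocampus by -0.25. Without the 4 litters, 19 genes of the list were lower and 4 higher.

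Interneuron genes were mostly lower in hippocampal culture, 21 of 33, with 2 higher and a median of -0.69. Dlx1, a homeobox factor of GABA neurons, spanned 4.59 to 7.08 log2 (median 5.47) in hippocampal cultures, against at most 8.01 (median 7.27) in cortical cultures, and was lower in all 10 litters by -1.72 on average (standard error 0.27, adjusted p = 0.000584). Nxph1, a ligand of neurexins, differed by -1.66 without overlap between the arrays. Slc32a1, which loads GABA into vesicles, was lower by -1.26, though only 1 of its 4 probes was called. The GABA-synthesizing enzymes differed less, Gad1 by -0.74 and Gad2 by -0.60. Among the peptides of interneurons, Npy was lower by -1.43 in 9 of 10 litters and Sst, somatostatin, by -1.21 in all 10. Pvalb and Vip were at background in both cultures. The mean level of the list ran from 6.44 to 7.09 over the hippocampal arrays, with KO 2038 the highest, and from 7.03 to 7.34 over the cortical arrays. Without the 4 litters 18 genes of the list were lower, with the KO litters alone 16 and with the WT litters alone 10.

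**Figure D3:**
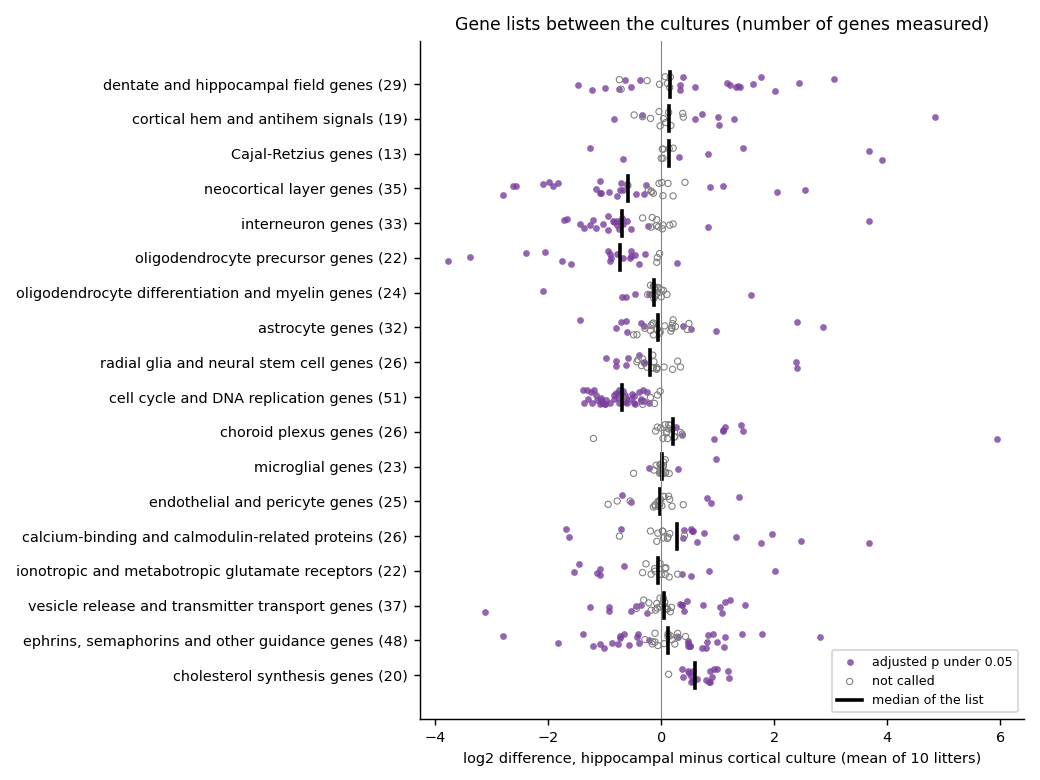
Log2 difference between hippocampal and cortical culture (horizontal axis, mean of 10 litters) of every measured gene in 18 lists, 1 row per list with the number of its genes, filled where the adjusted p was under 0.05 and with a bar at the median of the list. Medians lie at -0.70 for cell cycle genes, -0.73 for oligodendrocyte precursor genes and 0.60 for cholesterol synthesis genes.

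Genes of oligodendrocyte precursors were lower in hippocampal culture, 18 of 22 with 1 higher, and the median was -0.73. Olig2, a transcription factor of the lineage, spanned 4.35 to 5.58 log2 (median 4.84) in hippocampal cultures, against 7.41 to 9.36 (median 8.82) in cortical cultures, and 9 of its hippocampal arrays were below background. Pdgfra, the growth factor receptor of the precursors, spanned 4.96 to 6.01 (median 5.51) in hippocampal cultures, against 7.45 to 10.27 (median 8.98) in cortical cultures. The arrays of the 2 cultures did not overlap for either gene. A lower value in all 10 litters was a condition of naming both above. The other factors of the lineage were also lower, Sox8 by -2.39, Sox10 by -0.90 and Olig1 by -0.91, as were Lhfpl3 (-2.06) and the Notch ligand Dll1 (-1.75). Olig1 stayed high in both cultures, with 10.49 to 11.23 in hippocampal and 11.45 to 12.42 in cortical arrays. In the tissues of the same litters Olig2 differed by -0.28 and Pdgfra by -0.10, neither called. There 8 genes of the list were higher and 6 lower in hippocampus, where 24.5% and 22.3% of all genes were. The mean level of the list was 6.32 to 6.54 over the hippocampal arrays and 6.95 to 7.79 over the cortical arrays. Leaving out any 1 litter left 17 or 18 genes lower and leaving out the 4 litters 16. The KO litters alone gave 18 and the WT litters alone 12.

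Of 24 genes of later oligodendrocytes, 7 were lower and 1 higher, 33.3% called against 25.5% of all genes. At background were 12 of them, Mog included. Ugt8a, which makes the galactolipids of myelin, was lower by -2.09 and below background in hippocampal culture. Mbp, the basic protein of myelin, was lower by -0.70, but by -0.06 and not called with the probes left when those shared between transcripts were set aside. Gpr37, a receptor of oligodendrocytes that neurons also carry, was the higher member, at 1.59.

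Astrocyte genes split between the cultures, 5 of 32 higher and 7 lower, with a median of -0.05. Gfap spanned 8.25 to 9.95 log2 (median 9.02) in hippocampal cultures, against 5.54 to 7.39 (median 6.16) in cortical cultures, and its difference of 2.86 had a standard error of 0.13. Hopx, a homeodomain protein of dentate progenitors and astrocytes, was higher by 2.40, and Slc1a2, the main glutamate transporter of astrocytes, by 0.97, each without overlap. Aldh1l1, which marks astrocytes in general, went the opposite way: it spanned 7.30 to 8.03 (median 7.56) in hippocampal cultures, against 8.64 to 9.50 (median 9.01) in cortical cultures, and was lower by -1.43. Fabp7, a fatty acid-binding protein of young glia, was lower by -0.80, and Aqp4 differed by -0.49 without a call (adjusted p = 0.0643). Of the 3 markers that define the cell type, 1 was thus higher, 1 lower and 1 not called.

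Radial glia and stem cell genes had 8 of 26 lower and 2 higher. Hopx was again on the higher side, with Fam107a (2.38), a stress-induced actin-binding protein of outer radial glia. The lower ones included the Sox factors Sox1 (-0.97), Sox3 (-0.80) and Sox2 (-0.62) and the filament gene Nes (-0.58). The count of lower genes varied with the litters used. It rose to 13 without WT 2644, to 14 without the 4 litters and to 18 with KO litters alone, and was 2 with WT litters alone.

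Cell cycle and DNA replication genes, which mark dividing cells, were lower in hippocampal culture. Of 51 measured, 44 were lower in hippocampal culture and none higher, with a median of -0.70. In the tissues of the same litters 47 were higher in hippocampus and none lower, with a median of 0.45. There 24.5% of all genes were higher and 22.3% lower. Top2a, a topoisomerase of dividing cells, spanned 6.54 to 8.75 log2 (median 7.20) in hippocampal cultures, against 7.40 to 9.56 (median 8.74) in cortical cultures, and differed by -1.38 (standard error 0.28, adjusted p = 0.00346). Mki67, the proliferation antigen Ki-67, spanned 6.75 to 9.01 (median 7.49) in hippocampal cultures, against 7.47 to 9.52 (median 8.87) in cortical cultures, and differed by -1.31 (standard error 0.26). The arrays of both cultures overlapped for both genes. The centromeric histone Cenpa was lower by -1.36, Rrm2, which makes deoxynucleotides, by -1.30, Ccna2, cyclin A2, by -1.24 and Cdk1, the mitotic kinase, by -1.23. The replication clamp Pcna was lower by -0.60, and E2f1 differed by -0.07 without a call.

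The size of this difference varied between litters. Litters WT 2644 and WT 3569 did not share it: Top2a was at 8.75 in the hippocampal and 8.75 in the cortical culture of WT 2644, and at 7.86 and 7.40 in those of WT 3569. In the other 8 litters Top2a was lower in the hippocampal culture, with differences of -2.67 to -0.89. Over the list, the mean level of hippocampal arrays ran from 5.93 to 7.15, with WT 2644 the highest and the next at 6.58, and that of cortical arrays from 6.29, in WT 3569, to 7.65. With the 5 KO litters alone 45 of the 51 genes were called lower, with the 5 WT litters alone 1, without WT 2644 46 and without the 4 litters 46. A difference between genotypes was not called for any gene of the list, and the unadjusted p was 0.188 for Top2a and 0.162 for Mki67.

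**Figure D4:**
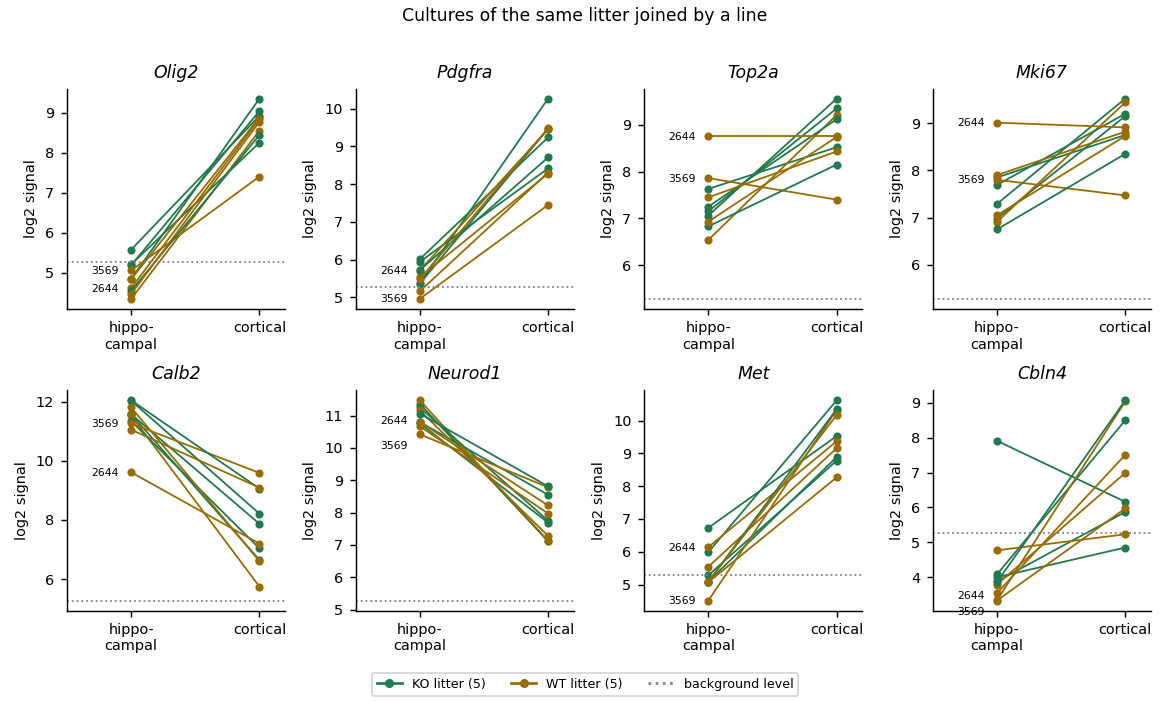
Log2 signal (vertical axis) of 8 genes in the hippocampal (left) and cortical (right) culture of each litter, joined by a line, with KO litters in green, WT litters in brown and litters 2644 and 3569 labelled. For Olig2 and Pdgfra all 10 lines climb to the cortical side, while for Top2a the line of 2644 is flat and that of 3569 falls.

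The promoters of Top2a and Cdk1, chosen after their values were seen, are shown for the motifs that cell cycle genes are known for: the CCAAT box (CCAAT) and the cell cycle homology element (TTTGAA), each on either strand and in capitals. The windows are from RefSeq on GRCm38.p6, Top2a at chr11:99024140-99024439 and Cdk1 at chr10:69352863-69353162, both on the minus strand.
Top2a: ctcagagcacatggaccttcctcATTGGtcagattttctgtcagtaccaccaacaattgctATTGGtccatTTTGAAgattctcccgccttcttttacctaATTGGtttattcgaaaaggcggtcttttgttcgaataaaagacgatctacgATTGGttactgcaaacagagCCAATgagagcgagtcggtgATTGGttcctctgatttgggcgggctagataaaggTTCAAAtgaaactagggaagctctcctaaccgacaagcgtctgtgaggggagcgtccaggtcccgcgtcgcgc
Cdk1: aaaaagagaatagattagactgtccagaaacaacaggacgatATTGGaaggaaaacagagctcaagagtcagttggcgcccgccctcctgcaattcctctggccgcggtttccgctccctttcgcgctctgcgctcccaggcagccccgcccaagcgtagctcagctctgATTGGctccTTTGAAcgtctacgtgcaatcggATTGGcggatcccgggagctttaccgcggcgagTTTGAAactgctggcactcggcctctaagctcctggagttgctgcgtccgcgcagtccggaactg
The Top2a window holds 8 matches of both motifs together and that of Cdk1 5. Of 40 cell cycle genes with a window, 30 hold CCAAT (75%, against 38.2% of all genes) and 16 hold TTTGAA (40%, against 13.3% of all genes). Among genes at least 2-fold higher in hippocampal culture 6.32% hold TTTGAA, and among those at least 2-fold lower 19.9%. The lower set includes cell cycle genes that hold TTTGAA, among them Top2a, Cenpa and Mki67, and its share is therefore not a separate count.

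Choroid plexus genes were higher in hippocampal culture where they differed, 10 of 26 with none lower and a median of 0.21. Apart from Ttr, the differences were modest. Trpm3, a cation channel of the plexus that neurons and glia also carry, was higher by 1.44, Calml4 by 1.41, the folate receptor Folr1 by 1.13 and the tight junction gene Cldn2 by 1.09. Kcnj13, a potassium channel that defines the plexus epithelium, differed by 0.19, with medians of 5.57 in hippocampal and 5.36 in cortical cultures, both close to background, and Aqp1 and Kl were at background in both. Folr1 overlapped widely, with 6.02 to 8.97 in hippocampal and 5.81 to 7.89 in cortical cultures. The mean level of the list was 5.78 to 6.66 over the hippocampal arrays and 5.43 to 5.97 over the cortical ones, and its part in the other differences was not tested. Of 19 genes of motile cilia, 4 were higher and 1 lower, 26.3% called against 25.5% of all genes. Foxj1, the factor that directs motile cilia, differed by 0.01.

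Markers of other cells that could be in the dishes were counted against the 25.5% of all genes called. Among 23 microglial genes 18 were at background, 2 were higher and 1 lower. Fcgr3, an IgG receptor, was the only one of them above background in hippocampal culture and called, at 0.96. Of 25 endothelial and pericyte genes 13 were at background, 3 were higher and 2 lower (4 lower without WT 2644). The pericyte gene Rgs5 was higher by 1.37, with 7.45 to 8.72 log2 in hippocampal and 4.86 to 9.06 in cortical cultures, but by 0.66 and not called without the 4 litters. Meningeal genes had 4 of 22 higher and 2 lower, and Dcn, decorin, varied between 4.81 and 9.20 in hippocampal and between 5.05 and 8.87 in cortical cultures with no call. Striatal genes had 4 of 24 higher and 7 lower. The higher ones were Pdyn (0.45), Pde10a (0.32), Adcy5 (0.27) and Rasd2 (0.25). The lower ones included Meis2 (-1.48), the orphan receptor Gpr6 (-1.31, below background in hippocampal culture) and the G protein subunit Gng7 (-0.90). Of the markers that define striatal neurons, Ppp1r1b was lower by -0.50, and neither Drd2 nor Isl1 was called. Thalamic genes had 3 of 17 higher and 2 lower (4 lower without WT 2644), with the zinc finger factor Zic1 at 1.82 and the forkhead factor Foxp2 at -1.16. Erythroid genes had none of 7 called, and all 7 were at background.

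Calcium-binding and calmodulin-related proteins were more often higher than lower in hippocampal culture, 12 of 26 against 3, with a median of 0.27. After Calb2 came Cabp7 (2.48), a calmodulin-like protein, with 7.53 to 9.53 log2 (median 9.20) in hippocampal cultures against 5.71 to 7.13 (median 6.69) in cortical cultures. Necab2, a neuronal calcium-binding protein known from CA2, was higher by 1.96 (standard error 0.08), Hpca, the calcium sensor hippocalcin, by 1.77, and Pcp4, a calmodulin modulator of CA2 and dentate neurons, by 1.32. All 4 were higher in all 10 litters, and only the arrays of Hpca overlapped. Lower were Camk2d (-1.68), a calmodulin kinase, with all 7 of its probes, Necab1 (-1.64) and Rcan2 (-0.72), an inhibitor of calcineurin, whose call ended without KO 2037, KO 2221 or KO 2620.

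Receptors for glutamate had 4 of 22 genes higher and 6 lower, and the subunits of 1 receptor class went both ways. Of the kainate receptor subunits, Grik4 was higher by 2.02, with 7.28 to 8.73 log2 in hippocampal and 5.49 to 6.73 in cortical cultures, and Grik1 was lower by -1.55, with 5.42 to 7.86 in hippocampal and 7.50 to 8.79 in cortical cultures. Of the AMPA receptor subunits, Gria1 was higher by 0.53 and Gria4 lower by -1.08. The presynaptic receptor Grm2 was lower by -1.45 and the NMDA receptor subunit Grin3a by -1.13. Among 36 partners of these receptors at the excitatory synapse, 11 were higher and 8 lower. Nptx1, a pentraxin that clusters AMPA receptors, was higher by 2.04 and Shisa6, an AMPA receptor auxiliary subunit, by 1.94, neither with overlap.

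GABA and glycine receptors had 6 of 18 genes higher and 5 lower. Gabra5, the alpha 5 subunit for which the hippocampus is known, was higher by 0.91, with 9.87 to 10.74 log2 (median 10.41) in hippocampal and 9.01 to 9.90 (median 9.54) in cortical cultures. Gabra3 was lower by -1.66 and Gabrg1 by -1.84, each in all 10 litters. Of 37 genes of vesicle release and transmitter transport, 11 were higher and 8 lower. Slc17a7, the vesicular glutamate transporter VGLUT1, was higher by 1.49 (standard error 0.13), with 6.55 to 8.32 in hippocampal and 5.41 to 6.57 in cortical cultures. The complexin Cplx2 was higher by 1.22 and the vesicle protein Sv2b by 1.04. On the lower side stood Syn3 and Slc32a1, described above, with Rab3b (-0.93), a small GTPase of vesicles.

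Potassium channel genes had 11 of 45 higher and 11 lower. Kcnip2, a partner of A-type channels, was higher by 1.54, the M-current subunit Kcnq5 by 1.16 and Kcna1 by 1.12. Kcnf1, a silent subunit that modifies other channels, was lower by -2.37, with 5.13 to 7.68 log2 (median 5.64) in hippocampal cultures against 7.76 to 8.77 (median 8.33) in cortical cultures. Sodium, calcium and HCN channel genes had 4 of 23 higher and 5 lower. Among 40 neuropeptides and their receptors, 7 were higher and 9 lower. Tacr3, the neurokinin B receptor, was higher by 2.52 (standard error 0.13), with 7.74 to 9.64 in hippocampal and 5.35 to 6.90 in cortical cultures, the peptide Nmb by 2.25 and the somatostatin receptor Sstr2 by 1.81. Somatostatin itself was among the lower genes. Of 25 receptors for amines and acetylcholine, 6 were higher and 3 lower, with Htr2c (2.20) and Htr4 (1.87), both serotonin receptors, the furthest apart.

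Activity-induced genes had 6 of 36 higher and 4 lower, a share of 27.8% called that was near the 25.5% of all genes. Ptgs2, cyclooxygenase 2, spanned 4.59 to 8.80 log2 (median 5.79) in hippocampal cultures, against 3.58 to 4.59 (median 3.92) in cortical cultures, and was higher by 1.97. Bdnf, the neurotrophin, spanned 9.69 to 12.81 (median 10.78) in hippocampal cultures, against 8.85 to 10.47 (median 9.55) in cortical cultures, and was higher by 1.24 in 9 of 10 litters, or by 0.72 and not called without the 4 litters. The immediate early genes Egr2 (-1.22), Npas4 (-0.95) and Nr4a1 (-0.69) were lower, while Fos and Arc differed by -0.36 and 0.04 without a call. Egr2, Npas4 and Nr4a1 varied widely among the arrays of either culture, Npas4 from 5.08 to 9.72 in hippocampal and from 5.93 to 10.72 in cortical cultures, and none of them was called when the litters were not paired. Without the 4 litters 8 genes of the list were higher and 10 lower. The mean level of the list was highest in WT 3569 in both cultures. It was 9.63 in its hippocampal culture (next 8.58) and 9.01 in its cortical culture (next 8.44).

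Axon guidance genes had 17 of 48 higher and 16 lower, where 13.1% and 12.4% of all genes were. Sema3e, a secreted semaphorin, spanned 8.49 to 9.97 log2 (median 8.80) in hippocampal cultures, against 5.07 to 7.72 (median 6.13) in cortical cultures, a difference of 2.81 (standard error 0.33), while its receptor Plxnd1 was lower by -2.80, with 5.84 to 8.22 (median 6.88) in hippocampal cultures against 9.22 to 10.34 (median 9.66) in cortical cultures. The coreceptors Nrp2 and Nrp1 were higher by 1.78 and 1.43, each with all 4 of its probes. Unc5d, a netrin receptor of upper layer neurons, was lower by -1.83. Cadherins and protocadherins had 8 of 31 higher and 9 lower, from Pcdh20 (2.78) to Cdh13 (-1.52) and Pcdh15. Of 29 neurotrophins, growth factors and their receptors, 9 were higher and 4 lower, with the receptor Fgfr1 at 1.25 and the growth factor Igf1 at -1.35. Wnt, BMP and Hedgehog pathway genes had 8 of 42 higher and 6 lower, 33.3% called against 25.5% of all genes. These counts were 8 and 11 without WT 2644, and 5 and 17 without the 4 litters.

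Cholesterol synthesis genes were higher in hippocampal culture almost without exception, 19 of 20 with none lower and a median of 0.60. Ebp, the sterol isomerase, spanned 8.74 to 9.91 log2 (median 9.31) in hippocampal cultures, against 7.39 to 8.65 (median 8.29) in cortical cultures, and differed by 1.19 (standard error 0.11). Mvd, mevalonate decarboxylase, was higher by 1.18, Fdps, farnesyl diphosphate synthase, by 0.99, Idi1, the isomerase before it, by 0.94, and the regulator Srebf2 by 0.52. Hmgcs1, the synthase at the head of the pathway, was higher by 0.37, all 5 of its probes being called. Pmvk, at 0.13, was the 1 gene not called. The mean level of the list ran from 9.40 to 10.20 over hippocampal arrays, with WT 2644 the lowest, and from 8.95 to 9.51 over cortical arrays, and it was higher in the hippocampal culture of every litter, by 0.23 to 1.17. In the tissues 4 of the genes were higher and 3 lower, with a median of 0.00, where 24.5% and 22.3% of all genes were. Without the 4 litters 18 were higher, with the KO litters alone 19 and with the WT litters alone 7.

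The promoters of Hmgcs1 and Ebp, also chosen after their values were seen, are shown for a pair of motifs of sterol-regulated genes: the sterol regulatory element (TCACNCCAC) and the CCAAT box (CCAAT), each on either strand and in capitals. The windows are from RefSeq on GRCm38.p6, Hmgcs1 at chr13:119690101-119690400 on the plus strand and Ebp at chrX:8193463-8193762 on the minus strand.
Hmgcs1: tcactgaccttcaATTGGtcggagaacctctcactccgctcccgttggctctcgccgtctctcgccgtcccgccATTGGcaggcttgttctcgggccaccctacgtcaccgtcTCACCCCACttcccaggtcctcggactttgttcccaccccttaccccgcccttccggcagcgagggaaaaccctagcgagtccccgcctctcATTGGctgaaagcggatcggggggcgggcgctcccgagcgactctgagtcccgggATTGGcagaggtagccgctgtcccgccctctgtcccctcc
Ebp: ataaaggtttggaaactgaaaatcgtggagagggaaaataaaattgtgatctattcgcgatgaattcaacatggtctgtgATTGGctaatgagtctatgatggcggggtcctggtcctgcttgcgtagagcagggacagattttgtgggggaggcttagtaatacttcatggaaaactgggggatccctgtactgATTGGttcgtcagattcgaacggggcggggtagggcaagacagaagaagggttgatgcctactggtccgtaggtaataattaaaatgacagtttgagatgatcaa
Of 16 cholesterol synthesis genes with a window, 15 hold CCAAT (93.8%, against 38.2% of all genes) and 1, Hmgcs1, holds this form of the sterol regulatory element (against 1.18% of all genes). The median GC content was 63.5% in these windows and 58.7% in all.

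Other metabolic and housekeeping genes differed less. Of 23 glycolysis and hypoxia genes 10 were higher and 2 lower, with a median of 0.25. Bnip3, a mitochondrial protein induced by low oxygen, was higher by 0.82, and Ldhb, a lactate dehydrogenase subunit, was lower by -0.95. Stress and unfolded protein genes had 3 of 31 higher and 5 lower, 25.8% called against 25.5% of all genes. These counts were 3 and 17 without the 4 litters. Hspa1b and Hspa1a, near-identical heat shock genes that probes may not tell apart, were higher by 1.6 and 0.99. Of 11 constitutive reference genes 4 were higher and none lower, with a median of 0.12, and Actb differed by -0.02.

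Fmr1 itself served as a check of the genotype labels. In KO litters it spanned 7.88 to 8.10 log2 in hippocampal and 7.90 to 8.44 in cortical cultures (n = 5 each), and in WT litters 8.69 to 9.17 in hippocampal and 8.47 to 9.28 in cortical cultures (n = 5 each). Every KO culture lay below every WT culture, but all KO cultures kept a signal far above the background of 5.28, and where the probe lies relative to the disrupted part of the gene was not examined. Between the regions Fmr1 differed by -0.04 (SD 0.26 over 10 litters, exact two-sided sign-flip permutation p = 0.707), and KO minus WT litters of this difference was -0.05 (exact two-sided permutation p = 0.849). Of the 5 Fragile X genes measured, among them the paralogs Fxr1 and Fxr2, none was called between the regions.

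Whether the difference between the cultures depended on genotype was tested on the 10 within-litter differences, KO litters minus WT litters. No gene was called at an adjusted p under 0.05 with limma (0%), the lowest adjusted p being 0.930, while 635 genes (3.49%) had an unadjusted p under 0.05. In simulated data of this size the fit recovered 67% of probes with a true log2 change of 1 and 19% of those with 0.5. Small dependences were thus mostly not detectable there at this number of litters. The simulation changed 100 probes by each amount and drew noise independently per probe, and its shares need not hold for the data. The smallest p values belonged to Fam185a, with differences of 0.40 in KO and -0.05 in WT litters, to the corepressor-interacting gene Cir1 (0.23 and -0.16) and to Unc5d (-1.37 and -2.30). On the other side stood the matrix protease Adamts5 (-0.66 in KO and 0.01 in WT litters), Mpp4 (0.05 and 0.49, at background) and Oplah (-0.01 and 0.39). Their adjusted p was 0.930 for each. Of the 451 genes at least 2-fold apart, 193 higher and 153 lower ones were also called in each genotype on its own. The 451 were chosen on these same litters, and the count is no separate check.

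The same litters gave embryonic hippocampus and cortex, which share no array with the cultures. Between the tissues 8519 genes were called (46.8%), 24.5% higher and 22.3% lower in hippocampus, and 2.44% and 1.23% of genes were so by at least 2-fold. Of the 231 genes at least 2-fold higher in hippocampal culture, 167 (72.3%) were also higher in hippocampal tissue, 26 (11.3%) lower and 38 not called. Of the 220 at least 2-fold lower, 136 (61.8%) were also lower in hippocampal tissue, 53 (24.1%) higher and 31 not called. Over all called genes the shares were lower: 42.6% of the 2389 higher genes were also higher in tissue and 22.4% lower, and 35.6% of the 2254 lower genes were also lower in tissue and 25.9% higher. A test of culture difference minus tissue difference in each litter called 6219 genes (34.2%, with 16.4% upward and 17.8% downward, a balance that turned to 4018 upward and 2638 downward genes with each array centred on its median), and 880 (4.84%) by at least 2-fold, 1.62% of genes upward and 3.22% downward. Ttr, at 5.94 in culture and 6.10 in tissue, and Gucy1a1, at -2.95 in both, were not called in it. The culture values of both are lower bounds, and the missing call does not show equal differences. Gains in culture were called for Calb2 (3.67 in culture and 2.00 in tissue), Cabp7 (2.48 and -0.14) and Htr4 (1.87 and 0.05). Prox1 was at 1.63 in culture and 3.79 in tissue, where the first value is a lower bound and the 2 cannot be ordered. Met (-4.09 in culture and -0.85 in tissue), Ccn3 (-3.91 and 0.05), Olig2 (-3.78 and -0.28) and Pdgfra (-3.39 and -0.10) were all called.

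In some lists most genes differed between culture and tissue in 1 direction, where 16.4% of all genes were called upward and 17.8% downward. That balance turned with each array centred on its median, and the lists were not counted on centred arrays for this test. For cell cycle genes, culture minus tissue was called lower for 50 of 51 and higher for none. For cholesterol synthesis genes it was called higher for 18 of 20 and lower for none, and for oligodendrocyte precursor genes lower for 16 of 22 and higher for 2. Astrocyte genes, of which 23 of 32 were higher in hippocampal tissue (against 24.5% of all genes), had 21 called lower in this test and 2 higher. Radial glia genes had 19 of 26 called lower and 2 higher.

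At least 2-fold apart in both systems with opposite sign were 4 genes higher and 6 lower in hippocampal culture. Kcnq5 was at 1.16 in culture and -2.36 in tissue, Shisa2, a modulator of FGF and Wnt receptors, at 2.10 and -1.06, and Kcnab1, a beta subunit of potassium channels, at 1.18 and -1.21. In the other direction, Rgs13, a regulator of G protein signaling, was at -1.97 in culture and 3.41 in tissue, the guidance cue Ntn1, netrin 1, at -1.09 and 1.79, the protocadherin Pcdh15 at -1.6 and 1.14 and the copine Cpne8 at -1.25 and 1.13. The others were Tdo2, Wif1 and Pygl, at background in both cultures. In culture Kcnq5 spanned 9.33 to 10.45 log2 in hippocampal and 8.63 to 9.44 in cortical arrays, with a small overlap of the lowest and highest. Rgs13 was below background in all hippocampal cultures (3.27 to 3.64) and spanned 4.88 to 6.16 in cortical ones.

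**Figure D5:**
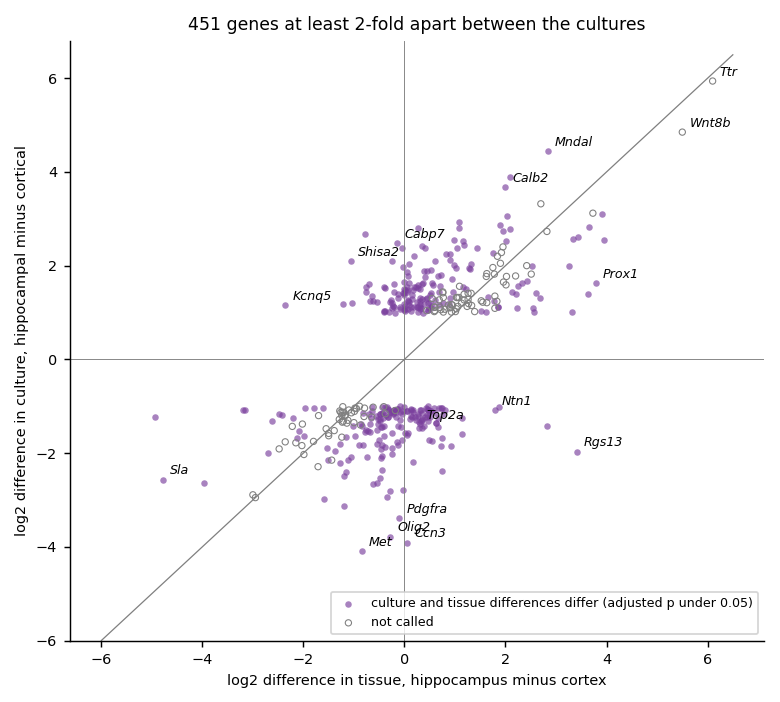
Log2 difference in culture (vertical axis, hippocampal minus cortical culture) against that in tissue (horizontal axis, hippocampus minus cortex) for the 451 genes at least 2-fold apart in culture, filled where culture and tissue differed at an adjusted p under 0.05, with a line of equal differences. Ttr and Wnt8b lie on or near the line, their culture values being lower bounds. Olig2, Pdgfra and Ccn3 lie near 0 in tissue and at -3.91 to -3.39 in culture.

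The spread between litters was largest for a few genes. Cbln4, a synaptic organizer of interneurons, was 3.33 to 4.77 log2 in 9 hippocampal cultures and 7.91 in that of KO 2620, against 4.85 to 9.07 in cortical cultures, and its within-litter difference ran from -5.69 to 1.75 (mean -2.67, adjusted p = 0.00812), or -1.53 and not called without the 4 litters. Akr1c14, a hydroxysteroid dehydrogenase, ran from -4.35 to 0.09 (mean -1.82), and Lox, the collagen crosslinker, from -1.14 to 4.43 (mean 1.27). The call of Lox was lost without KO 2037, KO 2038, KO 2221, WT 2643, WT 3569 or WT NT, while the mean difference without any 1 of the 10 litters was 0.92 to 1.54. Col8a1 (-1.20), a collagen, and Pdgfd, a growth factor, had a spread as wide and were not called, although Col8a1 was called with the KO litters alone (-1.70) and without the 4 litters (-2.18).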

How the data were processed

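RNA of 20 neuronal cultures and of 22 embryonic tissues was measured on Mouse Genome arrays from 100 ng of RNA each. The authors deposited log2 values per probe, normalized by RMA. The depth of an array is not a read count, and precision rests on how many litters there were. The table holds 45101 probes, 45037 of which were tested once 64 controls had been set aside. By the platform annotation 34945 had 1 gene, 932 several and 9160 none, and 34737 of the first were found in RefSeq. The probe with the highest mean over the cultures stood for each of 18194 genes.

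Cultures were paired by the mouse ID of the titles, read as the litter. The within-litter differences of 10 litters were fitted with limma 3.58.1 in R 4.3.3 (lmFit and eBayes, 9 residual degrees of freedom), and p-values were adjusted by Benjamini-Hochberg over all probes. The pairing rests on the labels. As a check, deviations from the group means of the 2 cultures of a litter correlated at 0.129 to 0.58, except in WT 2236 (-0.116). Of the 10 litters, 4 correlated best with their own partner. All 4 were KO litters, and no WT litter did so. Dependence on genotype was fitted on the same differences, and culture minus tissue on the 10 litters with both, leaving out 2 tissue arrays. Fmr1 was tested by exact permutation. Each fit was tested on simulated data, in which the fit between cultures recovered 88% of probes changed by 0.5 log2. Only 100 probes were changed by each amount, with independent normal noise, while 25.5% of genes were called in the data. The 88% therefore does not measure recovery in the data. Background was set from 123 probes, at the 95th percentile of their means over the arrays.

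The members and the 41 gene lists were chosen with earlier results of these data known. Of 1088 list entries 84 were not matched and are not analysed here. Named are the 12 genes per direction with the largest called difference and the same sign in 10 litters, up to 5 called members per list and direction with the markers that define it, Fmr1, the 3 genes per direction with the smallest genotype p, genes 2-fold apart with opposite sign in culture and tissue, and the 5 with the largest spread over litters. Other genes named were chosen after their values were seen. Alternatives changed the pairing, normalization, probe choice, filter, variance model, threshold and litters. Promoters are RefSeq sequences on GRCm38.p6, searched on both strands in Python 3.11.15.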

Additional observations from a re-analysis of the deposited data

Results flagged for a closer look

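Some single values lay far from the rest of their group of 10 by a gap test, which chance meets in about 1 in 20 groups. Many groups were tested, and some of those below may be due to chance. The hippocampal culture of WT 2644 scored -6.7 on the first component, with the next hippocampal culture at -30.5, and 56.7 on the second, with the next at 10.9. It also had the lowest hippocampal Calb2 (9.61, next 11.05) and the highest mean level of cell cycle genes (7.15, next 6.58). The hippocampal culture of WT 3569 was the highest for Klhl4 (4.55) and Mpp4 (5.22), and its litter had the smallest difference for Cpne8 (-0.17, next -0.97). In WT 2643 the cortical culture was the highest for Wnt8b (4.92) and Fam185a (7.92), and the Fmr1 difference was 0.54, with the next at 0.07. The lowest cortical Mpped1 was 8.77, in WT 2236. KO 2620 had the highest hippocampal Cbln4 (7.91, next 4.77), and KO 2038 the highest hippocampal mean level of interneuron genes (7.09, next 6.75).

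For many named genes the difference in culture and that in tissue differed in limma's test over 10 litters, with adjusted p from 5.3e-10 to 0.0492. Culture minus tissue, in log2, was positive for Kcnq5 (3.52), Shisa2 (3.16), Kcnab1 (2.39), Tspan18 (1.86), Nhlh2 (1.81), Calb2 (1.67), Mndal (1.60), Neurod1 (1.02), Gfap (0.97) and Fam185a (0.69). It was negative for Rgs13 (-5.38), Ccn3 (-3.96), Olig2 (-3.50), Pdgfra (-3.28), Met (-3.24), Ntn1 (-2.88), Rlbp1 (-2.76), Pcdh15 (-2.73), Klhl4 (-2.58), Plxnd1 (-2.51), Cpne8 (-2.37), Klf5 (-2.10), Cbln4 (-2.05) and Syn3 (-1.93). Smaller negative values were those of Akr1c14 (-1.69), Adamts5 (-1.54), Mpped1 (-1.37), Col8a1 (-1.28), Unc5d (-0.94), Thrsp (-0.83), Cnmd (-0.82) and Oplah (-0.29). For Cnmd the cortical means were below background in culture and in tissue, and its value does not order the 2 differences.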

How the results depend on the processing

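No named gene and no single value that was called changed sign under the alternatives run. The balance of calls did turn: 2389 higher and 2254 lower genes became 2271 and 2326 after quantile normalization and 2094 and 2131 with the KO litters only, 231 and 220 at least 2-fold apart became 259 and 323 without the 4 litters, and culture minus tissue, 2986 upward and 3233 downward, became 4018 and 2638 on median-centred arrays. The cause was not tested. The count of genes called between the cultures, 4643, was 891 with the WT litters only and 4225 with the KO litters only. It was 2776 at an adjusted p under 0.01, and between 3856 and 4919 without 1 litter. The count at least 2-fold apart, 451, was 1202 at 1.5-fold and 429 to 472 without 1 litter. Dependence on genotype gave 0 calls, 635 at an unadjusted p under 0.05, and 0 to 0 without 1 litter. Culture minus tissue gave 5442 to 6456 calls without 1 litter, and the Fmr1 difference ran from -0.10 to 0.00. Without the replicate block (litters not paired) 3877 genes were called in the 20 culture arrays and 5105 in all 42, of which 3745 and 4274 were among the 4643, against 4831 with litter as a random block. Of 299 named genes called, 148 kept the call under all alternatives, 143 lost it with the WT litters only, 25 with the KO litters only and 25 without some single litter. Values near the background level limit the size of a difference.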

Other observations

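Patterning factors of the telencephalon had 8 of 19 genes higher in hippocampal culture and 2 lower, with 8 at background. Zic1, a zinc finger factor, was higher by 1.82 log2, with 6.33 to 8.84 in hippocampal and 3.97 to 7.21 in cortical cultures. Emx2 (1.39), the nuclear receptor Nr2f2 (0.82) and Emx1 (0.51) were also higher. Of 27 genes of newborn neurons, 7 were higher and 5 lower. Nrn1, a neurite growth protein, spanned 10.07 to 11.87 in hippocampal and 8.34 to 9.80 in cortical cultures and was higher by 1.88, as was Igfbpl1, while Sox4, a factor of immature neurons, was lower by -1.12. Tubb3 and Dcx, which mark young neurons in general, differed by -0.03 and -0.22 without a call.

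Extracellular matrix genes had 3 of 30 higher and 7 lower, 33.3% called against 25.5% of all genes. These counts were 1 and 7 without the 4 litters that stand apart. The chondroitin sulfate proteoglycans Vcan (-0.89) and Bcan (-0.68) were lower in all 10 litters, and the laminin Lamb1 was higher by 0.74. Of 24 interferon and antigen presentation genes, 2 were higher and 1 lower (12.5% called), with Stat2 at 0.53.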
